A study of Mus musculus with 9 samples.

Results

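TRIF-deficient (TRIF KO) and wild-type peritoneal macrophages were compared after 4 h of stimulation with lipopolysaccharide (LPS), on 2 of the 9 arrays of the series. The comparison is of the levels that transcripts reached at 4 h, as log2 values of TRIF KO minus wild type. It covered the 10032 of 12394 genes whose log2 value was at least 6 on at least 1 array, with 1 probe set for each gene. The genes nearest to that limit were Rab27a, with a highest value of 6.0002, inside it, and Rab4a, with 5.99997, outside it.

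The macrophages came from the peritoneum of mice, where thioglycollate, an irritant broth, had recruited them. Wild-type mice, mice without the adaptor TRIF and mice without the adaptor MyD88 each gave 1 unstimulated array, 1 array after 1 h and 1 array after 4 h of 100 ng/ml LPS. The 3 genotypes shared the recruitment and the dose. The sources used here name no strain background, age or knockout allele, and do not say whether cells of several mice were pooled. With 1 array a side there is no replicate check and no test, and every value below is a difference between 2 arrays. Its yardstick is the same difference, TRIF KO minus wild type, between the unstimulated arrays and between the 1 h arrays, which have no array in common with the 4 h pair.

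LPS is sensed by Toll-like receptor 4, which signals through a pair of adaptor routes. MyD88, recruited at the cell surface, activates NF-kB and MAP kinases and drives early cytokine transcripts. TRIF, recruited after the receptor has entered endosomes, activates the kinase TBK1 and the transcription factor IRF3, which switch on interferon beta and some chemokine genes. Secreted interferon beta then acts back on the macrophage through its receptor, and factors that include STAT2 and IRF9 bind interferon-stimulated response elements (ISREs). TRIF also feeds into NF-kB through RIPK1 and the ubiquitin ligase Pellino-1.

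The sequences just upstream of some of the genes at least 2-fold lower in TRIF KO at 4 h show these elements. They are the 250 bases before the gene start in RefSeq (build GRCm38.p6), each written 5′ to 3′ on the strand of its gene. In the first 5, capitals mark each ISRE core, which is GAAA, any 2 bases and GAAA again, on either strand.
Ifit1, chr19:34640639-34640888, plus strand: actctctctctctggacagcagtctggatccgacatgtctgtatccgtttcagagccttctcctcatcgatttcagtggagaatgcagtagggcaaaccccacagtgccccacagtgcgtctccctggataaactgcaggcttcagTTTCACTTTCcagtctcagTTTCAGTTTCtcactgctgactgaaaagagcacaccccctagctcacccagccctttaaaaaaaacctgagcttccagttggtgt
Ifit3, chr19:34583279-34583528, plus strand: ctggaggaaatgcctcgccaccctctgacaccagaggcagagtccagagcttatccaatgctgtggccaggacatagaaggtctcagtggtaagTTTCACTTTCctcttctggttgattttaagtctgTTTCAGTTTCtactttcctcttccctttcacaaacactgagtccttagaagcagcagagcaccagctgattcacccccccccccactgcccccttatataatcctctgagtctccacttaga
Rsad2, chr12:26456453-26456702, minus strand: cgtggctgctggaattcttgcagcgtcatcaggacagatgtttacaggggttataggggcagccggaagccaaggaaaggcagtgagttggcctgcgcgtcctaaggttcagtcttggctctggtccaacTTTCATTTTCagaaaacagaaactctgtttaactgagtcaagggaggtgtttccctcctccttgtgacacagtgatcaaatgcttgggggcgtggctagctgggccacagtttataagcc
Cxcl10, chr5:92348890-92349139, minus strand: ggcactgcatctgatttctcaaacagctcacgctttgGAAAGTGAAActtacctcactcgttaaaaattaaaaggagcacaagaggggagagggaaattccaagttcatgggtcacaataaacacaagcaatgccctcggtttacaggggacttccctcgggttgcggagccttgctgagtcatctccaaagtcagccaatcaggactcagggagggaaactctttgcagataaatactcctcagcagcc
Gbp2, chr3:142620413-142620662, plus strand: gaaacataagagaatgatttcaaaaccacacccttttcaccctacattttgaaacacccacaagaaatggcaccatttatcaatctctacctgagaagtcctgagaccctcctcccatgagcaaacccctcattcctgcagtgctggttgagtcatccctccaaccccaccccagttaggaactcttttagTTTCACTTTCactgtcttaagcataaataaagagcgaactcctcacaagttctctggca
In the next sequences, of a cytokine and a chemokine gene with no ISRE core in the window, capitals mark the NF-kB consensus.
Il6, chr5:30012864-30013113, plus strand: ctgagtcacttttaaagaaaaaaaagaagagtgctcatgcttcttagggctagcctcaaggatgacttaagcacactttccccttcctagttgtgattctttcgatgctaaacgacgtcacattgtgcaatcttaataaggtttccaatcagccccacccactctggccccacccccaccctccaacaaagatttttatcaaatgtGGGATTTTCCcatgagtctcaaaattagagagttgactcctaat
Cxcl1, chr5:90890995-90891244, plus strand: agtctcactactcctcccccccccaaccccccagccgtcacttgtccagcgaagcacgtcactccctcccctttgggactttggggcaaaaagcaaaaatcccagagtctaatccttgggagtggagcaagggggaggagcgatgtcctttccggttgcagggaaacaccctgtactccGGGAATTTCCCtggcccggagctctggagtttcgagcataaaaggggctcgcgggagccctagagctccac
The cores begin, in bases from the start, at -104 and -85 from the start in Ifit1, at -156 and -122 in Ifit3, at -120 in Rsad2, at -213 in Cxcl10 and at -59 in Gbp2. In Cxcl1 there are 2 overlapping matches. Only genes with a match were printed, and Ifit2, Oasl1 and Acod1, also at least 2-fold lower, held no ISRE core.

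At 4 h, 35 genes were at least 2-fold lower in TRIF KO than in wild type, 0.349% of the genes compared, and 8 were at least 2-fold higher, 0.0797%. At least 4-fold lower were 5 genes, and at least 4-fold higher 2. Between the unstimulated arrays of the same genotypes 7 genes were lower (0.0698%) and 8 higher (0.0797%), and between the 1 h arrays 8 and 7. The excess at 4 h was thus on the lower side. With the unstimulated difference subtracted, 27 genes were lower, 23 of them among the 35, and 2 higher, 0 of them among the 8. With the 1 h difference subtracted, 22 were lower, 18 of them among the 35, and 2 higher, 1 of them among the 8. Over all genes the median difference at 4 h was -0.01, and 99% lay within 0.68, against 0.47 unstimulated and 0.51 at 1 h.

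**Figure D1:**
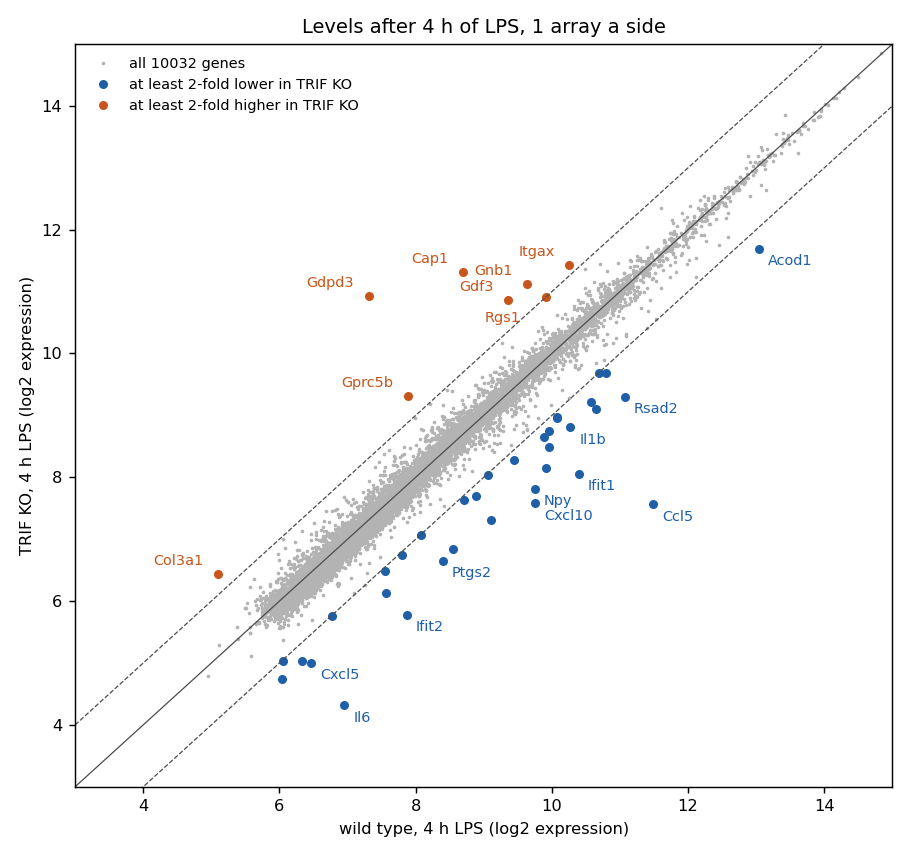
Log2 expression of each of the 10032 genes on the wild-type array (horizontal) and the TRIF KO array (vertical) after 4 h of LPS. The solid line marks equal levels and the dashed lines a 2-fold difference. The 35 blue genes lie below the lower line and the 8 orange genes above the upper one, with Ccl5 and Gdpd3 farthest out.

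The chemokines that interferon pathways induce differed most. Ccl5, which attracts T cells and monocytes, had log2 levels of 7.68, 7.71 and 11.48 in wild type at 0, 1 and 4 h, and 7.11, 7.14 and 7.56 in TRIF KO. Its level at 4 h was 15.1-fold lower in TRIF KO (a difference of -3.92), the lowest difference of all genes, and stayed below every wild-type array. Cxcl10, which attracts T cells through CXCR3, read 6.72, 7.30 and 9.75 in wild type and 6.93, 6.997 and 7.58 in TRIF KO, 4.51-fold lower at 4 h. The TRIF KO array at 4 h was thus above both unstimulated arrays for Cxcl10 but not for Ccl5. Before LPS the differences were -0.57 for Ccl5 and 0.22 for Cxcl10. Of the 6 listed genes 4 were analysed, and the others, Ccl8 and Cxcl9, differed by -0.36 and -0.07. Ccl12 and Cxcl11 did not reach log2 6 on any array.

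The antiviral effectors followed. Ifit1, whose protein binds foreign RNA caps, read 8.004, 7.69 and 10.40 in wild type and 7.37, 7.35 and 8.06 in TRIF KO, 5.05-fold lower at 4 h. Ifit2 read 5.85, 5.82 and 7.87 against 5.46, 5.36 and 5.77, 4.29-fold lower, with weak signal below log2 6 on all 3 TRIF KO arrays. Rsad2 (viperin, which makes an antiviral nucleotide) read 9.51, 9.20 and 11.07 against 8.97, 9.05 and 9.30, 3.42-fold lower. For Ifit1, Ifit2 and Rsad2 the 3 TRIF KO arrays also lay below the wild-type array of the same time before LPS and at 1 h, by 0.63, 0.39 and 0.54 unstimulated. The antiviral genes Cmpk2, Rtp4, Mx1, Parp14 and Ifit3 differed by -1.44, -1.36, -1.31, -1.11 and -1.06 at 4 h. Below 2-fold, Trim30a and Ddx60 differed by -0.86 and -0.69. In all, 9 of 25 analysed members of this list were at least 2-fold lower and 0 higher, against 0.349% and 0.0797% of all genes. The median at 4 h was -0.61 against -0.01 over all genes. The list's median before LPS was -0.07 and at 1 h -0.03. At the other end Bst2, Ifitm3 and Ifitm6 stood at 0.01, 0.03 and 0.29, so the lower levels did not take in the whole list. Isg15, Ifi44, Ifi27, Phf11d and Xaf1 had no probe set of their own and were not analysed here.

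In the list of sensors of foreign nucleic acids, OAS genes and related genes, Oasl1 and Ifih1 stood out. Oasl1, an OAS-like protein that restrains translation of Irf7, read 8.33, 8.30 and 9.91 in wild type and 8.17, 8.16 and 8.16 in TRIF KO, 3.37-fold lower at 4 h. Ifih1, the RNA sensor MDA5 that also stands in the list of effectors, read 9.05, 8.93 and 10.64 against 9.01, 8.99 and 9.11, 2.89-fold lower. The 3 TRIF KO arrays of Oasl1 and Ifih1 lay within 0.2 of each other. Oasl2 differed by -1.07 and Mndal, of the interferon-inducible HIN200 family, by -0.75. Of 16 analysed members of this list 3 were at least 2-fold lower (0.349% of all genes were) and 0 higher, with a median of -0.26. The interferon-induced GTPases, which act on vacuoles that hold microbes, had a median of -0.72. All 9 analysed members were below 0, where 53.3% of all genes were. At least 2-fold lower were 2, against 0.349% of all genes. Gbp6 read 6.03 in wild type and 4.75 in TRIF KO at 4 h, and Gbp2 read 10.07 and 8.96. Gbp6 reached log2 6 on the wild-type 4 h array alone, and with low values raised to log2 6 it stood at -0.034. Gbp2 was the 1 member at least 2-fold above its unstimulated level in TRIF KO, where it had read 7.74 (0.409% of all genes were). Ifi47, Irgm1 and Igtp differed by -0.97, -0.85 and -0.72, and Iigp1 by -0.07.

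The transcripts of the route itself differed less. Tlr4 read 7.44 in wild type and 7.59 in TRIF KO at 4 h, Myd88 10.002 and 9.96, the kinase Tbk1 9.72 and 9.63, and Irf3 9.44 and 9.51. The exception was Peli1, the gene of Pellino-1, which read 8.78, 8.67 and 9.96 in wild type and 8.50, 8.52 and 8.50 in TRIF KO, 2.77-fold lower at 4 h. Its other probe set gave a difference of -1.24. Tank, a scaffold of TBK1, differed by -0.50, while Ikbke, the kinase related to TBK1, was at 10.33 in wild type and 10.38 in TRIF KO. Of 17 analysed members of the signalling list 1 was at least 2-fold lower (0.349% of all genes were), and the median was -0.01. Ticam1, which encodes TRIF, is not analysed here, as no probe set names it alone, so the knockout was not checked. Interferon beta (Ifnb1) did not pass log2 6 on any array, with a highest value of 5.58, and the 3 interferon alpha genes analysed differed by -0.08 to 0.06. The receptor chain Ifnar1 differed by 0.06.

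Of 15 interferon regulatory factors and STATs, 0 were 2-fold apart and the median was -0.08. Irf1, an early target of NF-kB, read 9.45, 10.70 and 10.89 in wild type and 9.58, 10.41 and 10.17 in TRIF KO. The TRIF KO array was thus 0.28 below wild type at 1 h and 0.72 below at 4 h. Stat2, part of the factor that binds ISREs, differed by -0.49. Irf8, a factor of the macrophage lineage that was lower at 4 h than before LPS in both genotypes, differed by 0.58. Usp18, which blocks signalling at the interferon receptor, read 7.57 before LPS and 8.08 at 4 h in wild type, and 7.33 and 7.07 in TRIF KO, a difference of -1.004 at 4 h.

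**Figure D2:**
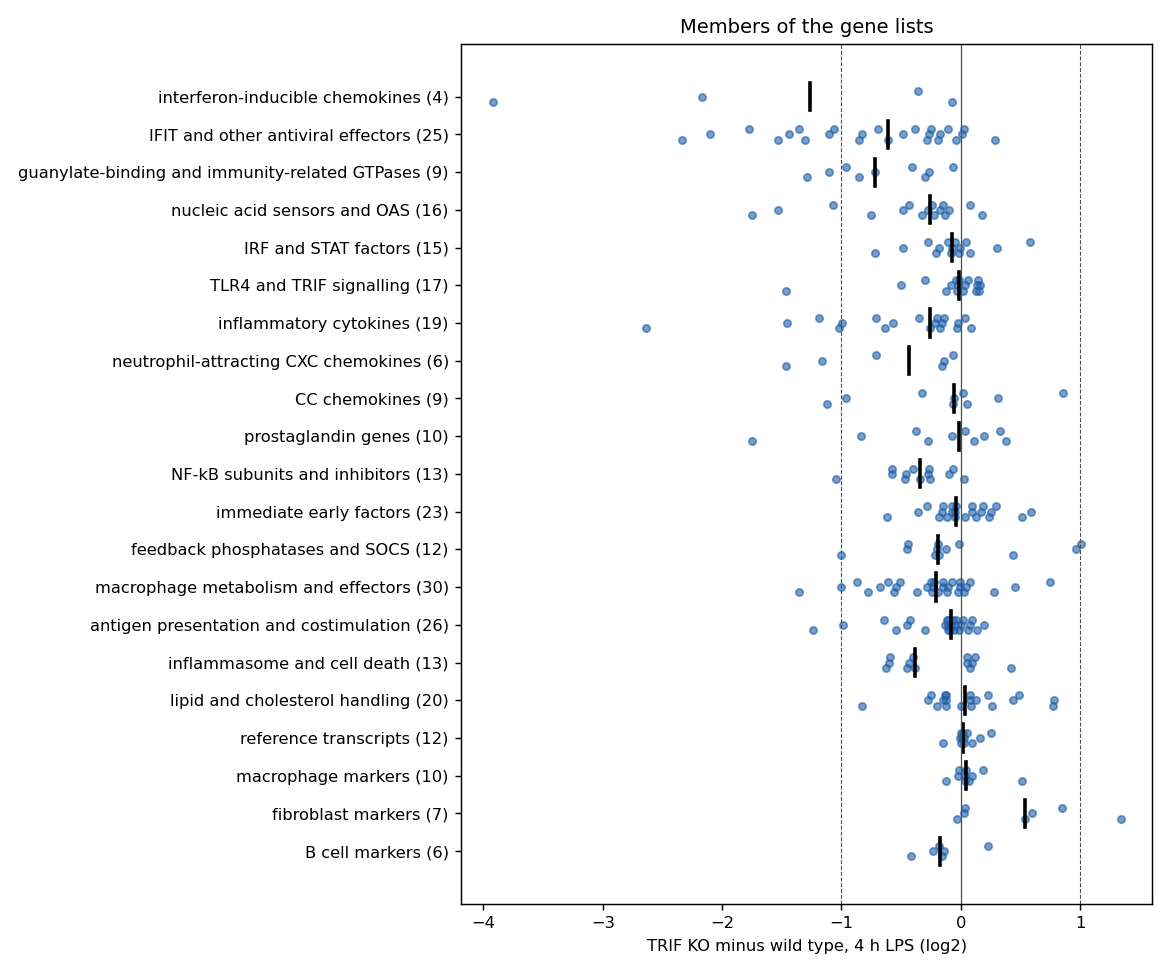
Difference between TRIF KO and wild type after 4 h of LPS (log2, horizontal) for each analysed member of 21 gene lists, with the number of members in brackets. Points are genes, black bars are medians and dashed lines mark 2-fold. The interferon-inducible chemokines, the antiviral effectors and the GTPases have the lowest medians, at -1.26, -0.61 and -0.72, and the reference transcripts lie close to 0.

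Several inflammatory cytokines and the prostaglandin enzyme gene Ptgs2 were also lower. Il6, the cytokine of fever and the acute phase, read 3.97, 4.47 and 6.95 in wild type and 3.91, 4.29 and 4.31 in TRIF KO. It was 6.23-fold lower at 4 h, and its 3 TRIF KO values were below log2 6, where signal is weak. Il6 reached log2 6 on the wild-type 4 h array alone. Ptgs2, the inducible cyclooxygenase, read 5.47, 6.62 and 8.40 against 5.38, 6.03 and 6.65, 3.36-fold lower, and its other probe set gave -1.60. Il1b, the main product of inflammasome activity, read 6.95, 9.83 and 10.27 against 6.99, 9.21 and 8.81, 2.75-fold lower. TRIF KO was thus 0.62 below wild type at 1 h, and from 1 to 4 h its level was lower where that of wild type was higher. Il1a and Il12a, a subunit of interleukin 12, differed by -1.02 and -0.996 at 4 h. Tnf read 12.46 in wild type and 11.75 in TRIF KO, a difference of -0.71, close to its -0.75 at 1 h. Tnfsf9, a ligand that costimulates T cells, read 8.88 and 7.69 at 4 h, and its difference had been larger at 1 h (-1.75). Of 19 analysed cytokines 4 were at least 2-fold lower (0.349% of all genes were) and 0 higher, with a median of -0.26. Il12b and Il15 differed by -0.64 and -0.57. Il1rn, the antagonist of interleukin 1, stood at 0.03. Il10 did not reach log2 6 on any array. Among 10 prostaglandin genes, Ptges, which makes prostaglandin E2 from the product of Ptgs2, differed by -0.84, and the list's median was -0.02.

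Of the chemokines that attract neutrophils, all 6 analysed were below 0, where 53.3% of all genes were. Ppbp, Pf4 and Cxcl15 lay close to 0, at -0.06, -0.14 and -0.16. Cxcl1 read 5.19, 9.17 and 9.44 in wild type and 5.33, 8.57 and 8.28 in TRIF KO, 2.24-fold lower at 4 h. Cxcl5 read 6.47 and 5.01 at 4 h, and Cxcl2 12.59 and 11.88. The wild-type 4 h array was the only one on which Cxcl5 reached log2 6. Cxcl1 in TRIF KO was still above its unstimulated level. Cxcl5 in TRIF KO read 4.09 before LPS and 5.01 at 4 h, both below log2 6, where signal is weak. Ccl4 and Ccl3, which attract monocytes and T cells, read 10.80 and 11.53 in wild type against 9.68 and 10.56 in TRIF KO, differences of -1.12 and -0.96. Ccl2 and Ccl7, ligands of CCR2, differed by 0.05 and 0.02. The 6 CXC genes had a median of -0.43, with 2 at least 2-fold lower, and the 9 CC genes a median of -0.05, with 1. Over all genes 0.349% were.

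Among NF-kB genes 12 of 13 were below 0 at 4 h, where 53.3% of all genes were, but only Traf1 passed 2-fold. The median was -0.35, against 0.20 between the unstimulated arrays and -0.01 at 1 h. Traf1, a survival adaptor, read 5.33 and 7.54 at 0 and 4 h in wild type and 5.34 and 6.49 in TRIF KO. Tnip1, a partner of the deubiquitinase A20, and Nfkbie, an inhibitor of NF-kB, differed by -0.58 and -0.57. Nfkbia, the main inhibitor, read 13.28 and 13.21 on the probe set used, but its other 3 probe sets gave -0.49, -0.33 and -0.11. The 23 immediate early factors had a median of -0.04, and Fos and Egr1 were higher in TRIF KO at 4 h by 0.58 and 0.51, Egr1 also before LPS by 0.66. The mRNA decay factors Zfp36 and Zc3h12a differed by -0.04 and 0.07.

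Other genes that LPS raises in macrophages were also lower. Acod1, the enzyme that makes itaconate, read 9.31, 10.64 and 13.04 in wild type and 8.81, 9.50 and 11.69 in TRIF KO, 2.56-fold lower at 4 h and lower at every time. Cd40, which takes signals from helper T cells, read 8.002 and 9.88 at 0 and 4 h in wild type and 7.79 and 8.65 in TRIF KO, 2.36-fold lower. Icam1, an adhesion molecule, differed by -0.98, and Cd274 (PD-L1, an inhibitory ligand for T cells) by -0.64, while Cd80 and Cd86, ligands of CD28, differed by 0.02 and -0.05. Lcn2, which withholds iron from bacteria, differed by -1.01, with -0.55 before LPS. The arginine transporter Slc7a2, the fatty acid receptor Gpr84 and the cystine transporter Slc7a11 differed by -0.87, -0.78 and -0.61. Ch25h, which makes 25-hydroxycholesterol, differed by -0.83. Fpr2, a formyl peptide receptor, read 11.22 and 11.20, and Sod2, mitochondrial superoxide dismutase, 12.33 and 12.09, so that these LPS-induced genes reached nearly the same level. Of 30 metabolic and effector genes 2 were at least 2-fold lower (0.349% of all genes were), and the median was -0.21. Of 26 antigen presentation and costimulatory genes 1 was, with a median of -0.09. The inflammasome and cell death list had a median of -0.39 and 0 of 13 at 2-fold. Nlrp3, Cflar and Casp4 differed by -0.63, -0.60 and -0.59.

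The MyD88 KO arrays, which are on neither side of the comparison, separated the lower genes. Of the 35, 14 (40.0%) were at least 2-fold higher in MyD88 KO after 4 h of LPS than in unstimulated MyD88 KO, against 0.429% of all genes. They were Ccl5, Cxcl10, Ifit1, Ifit2, Rsad2, Oasl1, Ifih1, Peli1, Cmpk2, Acod1, Parp14, Gbp2, Traf1 and Gca, a calcium-binding protein. Ifit1 read 8.15 and 10.40 at 0 and 4 h in MyD88 KO, the wild-type level at 4 h, and Rsad2 read 9.45 and 11.40. Ccl5 read 7.60 and 9.63, between wild type and TRIF KO. Peli1 read 8.53 and 9.56. Not all of the 14 were clearly higher in MyD88 KO than in TRIF KO at 4 h. Gbp2 read 7.45 and 9.01 and Traf1 5.03 and 6.15 in MyD88 KO, against 8.96 and 6.49 in TRIF KO at 4 h. Acod1 read 7.79 and 12.21, where unstimulated wild type read 9.31. Gca reached log2 6 on the wild-type 4 h array alone, and read 4.36 and 5.39 in MyD88 KO, where signal is weak. The unstimulated value of Traf1 in MyD88 KO was also below log2 6. Il6, Cxcl5 and Gbp6, also among the 35, reached log2 6 on the wild-type 4 h array alone too. Another 17 of the 35 were within 2-fold of their unstimulated level in MyD88 KO and had not been 2-fold lower in TRIF KO before LPS. Il6, Ptgs2, Il1b, Cxcl1, Cxcl5, Ccl4, Il1a and Tnfsf9 were among these. Il6 read 4.20 and 3.98 at 0 and 4 h in MyD88 KO, Ptgs2 5.59 and 5.67 and Il1b 6.61 and 6.58. The 17 also held interferon-induced genes that lay just short of 2-fold in MyD88 KO. Ifit3 read 7.43 and 8.42, Mx1 5.31 and 6.19 and Rtp4 9.85 and 10.69. The split at 2-fold therefore did not separate interferon-induced from inflammatory genes. At 1 h in wild type, 5 of the 17 and 1 of the 14 were at least 2-fold above unstimulated wild type (0.239% of all genes).

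**Figure D3:**
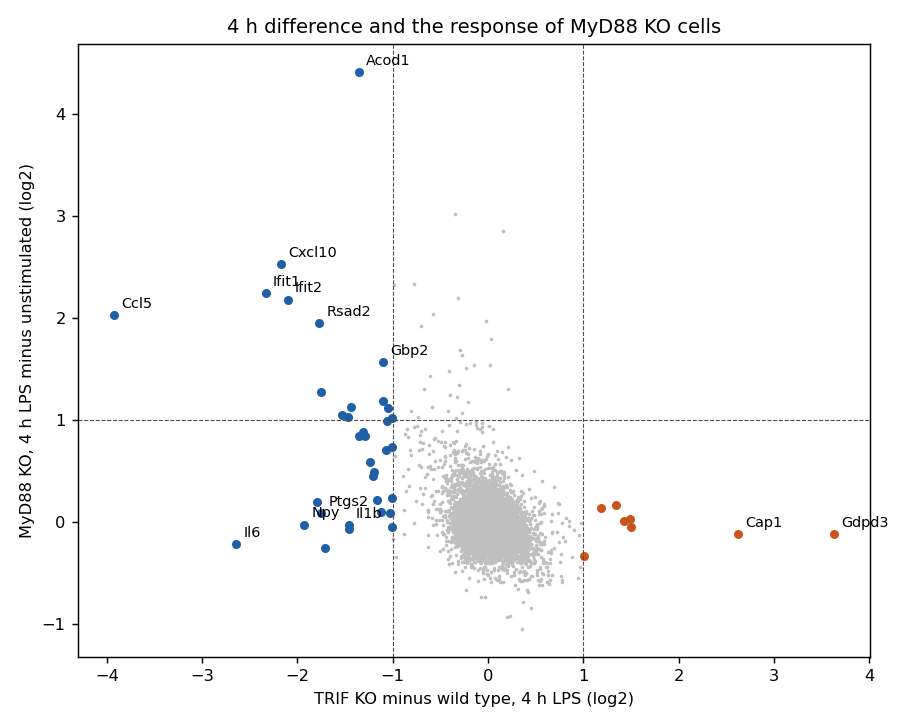
Difference between TRIF KO and wild type at 4 h of LPS (log2, horizontal) against the 4 h response of MyD88 KO cells (log2, vertical), for the 10032 genes. Blue and orange points are the 35 lower and 8 higher genes, and dashed lines mark 2-fold. The 14 lower genes above the horizontal line include Ccl5, Cxcl10 and Ifit1, while Il6, Ptgs2 and Il1b lie near 0 on the vertical axis.

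Upstream windows were listed for 24 of the 35 lower genes. An ISRE core (GAAA, any 2 bases and GAAA, either strand) was in the window from 250 bases before to 50 after the start in 6 of the 24, or 25%: Cxcl10, Gbp2, Ifih1, Ifit1, Ifit3 and Rsad2. Among the 8081 analysed genes with a window 3.97% held one. In Ifih1 it lies after the start, at 32. The NF-kB consensus was in 6 of the 24 (Cxcl1, Cxcl10, Gbp2, Ifit2, Il6 and Oasl1), against 12.6%, and Cxcl10 and Gbp2 held both. Of the 14 lower genes at least 2-fold higher in MyD88 KO at 4 h than unstimulated, 12 had a window and 5 held an ISRE core. Of the 17 within 2-fold there, 9 had a window and 1, Ifit3, held a core. Ifit3 lay just short of 2-fold in MyD88 KO, at 0.99. The 8 higher genes had 6 windows and 0 cores. Ccl5 was not among the genes with a window. These are matches of letters in a short window.

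**Figure D4:**
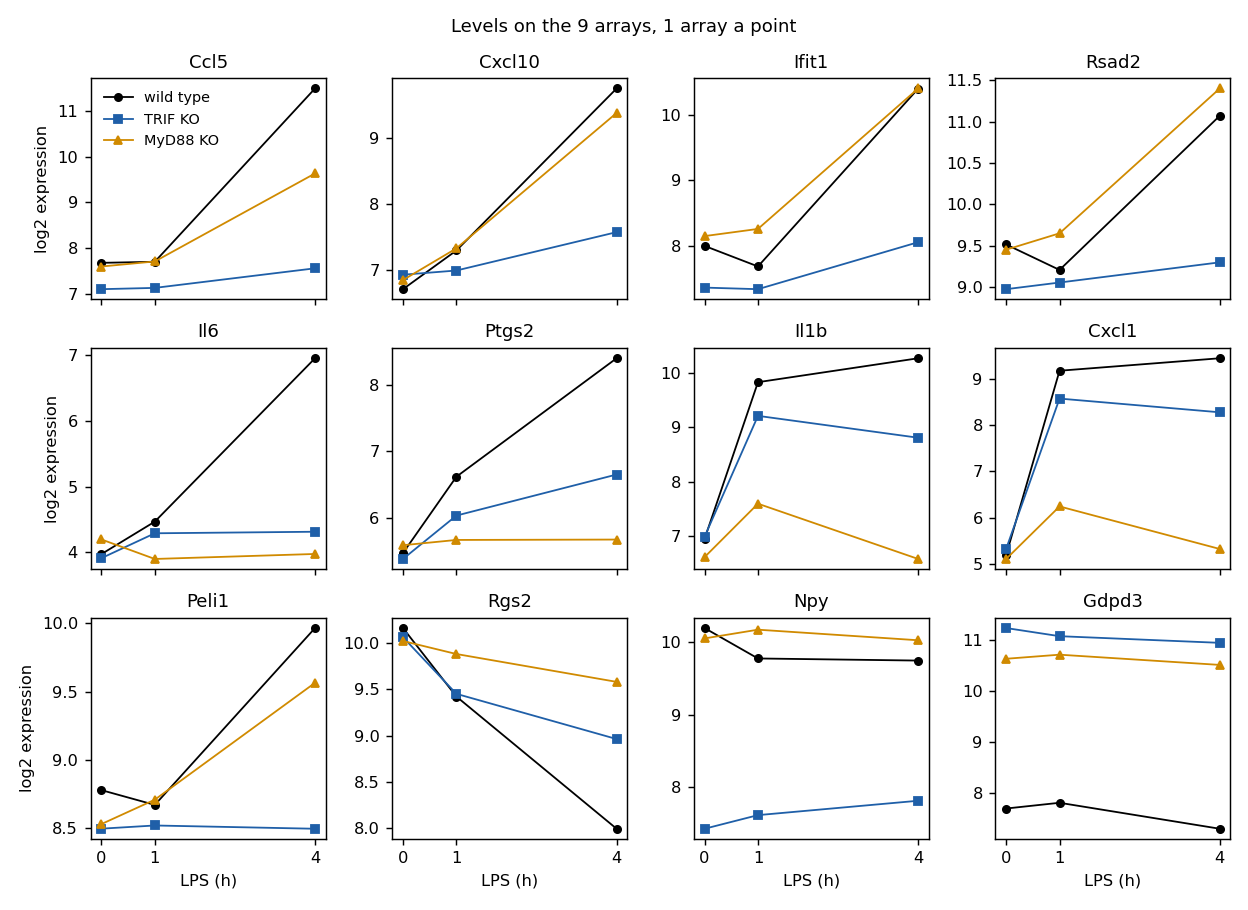
Log2 expression of 12 genes at 0, 1 and 4 h of LPS (horizontal) in wild type, TRIF KO and MyD88 KO, 1 array a point, each panel with its own vertical scale. The gap between wild type and TRIF KO widens from 1 to 4 h for Ccl5, Ifit1, Il6 and Peli1, and lie apart from the start for Npy and Gdpd3.

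Some genes on the higher side had lower levels after LPS in wild type. Rgs1, a regulator of G protein signalling, read 11.36, 11.37 and 9.91 in wild type and 11.43, 11.37 and 10.92 in TRIF KO, a difference of 1.01 at 4 h. Rgs2, of the same family, read 10.16, 9.42 and 7.997 against 10.06, 9.45 and 8.97, a difference of 0.97. Both pairs of arrays were within 0.2 of each other before LPS and at 1 h. The cannabinoid receptor Cnr2 and the nuclear receptor Pparg differed by 0.94 and 0.77 at 4 h, with 0.10 and -0.05 unstimulated. In MyD88 KO at 4 h Rgs1, Rgs2, Cnr2 and Pparg read 11.09, 9.58, 7.21 and 8.38, each above wild type and TRIF KO. The limit of 2-fold passed between Rgs1 and Selp (0.971) on this side, with Rgs2 (0.968) next. On the other side it passed between Pdpn (-1.004) and Il12a (-0.996), with Icam1, Slfn1, Ifi47 and Ccl3 just short of it.

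Genes that differed before LPS made up most of the higher group. Of the 8 higher genes 6 were also at least 2-fold higher in unstimulated TRIF KO, against 0.0797% of all genes. They were Gdpd3, Cap1, Gdf3, Gnb1, Gprc5b and Itgax. Gdpd3, a lysophospholipase, read 7.71, 7.82 and 7.31 in wild type and 11.22, 11.07 and 10.94 in TRIF KO, 12.3-fold higher at 4 h. Cap1, which helps to recycle actin, read 9.29, 9.02 and 8.69 against 11.41, 11.29 and 11.32, 6.16-fold higher, and its other probe set gave 2.68. Before LPS and at 1 h the differences were 3.52 and 3.25 for Gdpd3 and 2.12 and 2.27 for Cap1. MyD88 KO was also high, with 10.63, 10.70 and 10.51 for Gdpd3 and 11.46, 11.40 and 11.34 for Cap1, so that the wild-type arrays were the ones apart. Itgax, the integrin CD11c, read 10.25 and 11.43 at 4 h, with 11.27 in MyD88 KO, and at -0.25 with the unstimulated difference subtracted. Gdf3, of the TGF-beta family, read 9.35 and 10.86, with 9.86 in MyD88 KO. Gnb1, a G protein subunit, differed by 1.49 on the probe set used and by 0.22 and -0.13 on 2 others. Its call rests on 1 probe set. Gprc5b, a receptor of the G protein-coupled kind, differed by 1.43, and by 0.79 on its other probe set. In MyD88 KO, Gnb1 and Gprc5b were also above wild type at 4 h, by 1.20 and 1.47 on the probe sets used.

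Several genes that differed by less than 2-fold at 4 h had the same kind of baseline difference. Arg1, arginase, which competes for arginine with nitric oxide synthase, read 11.92, 11.92 and 11.60 in wild type and 12.60, 12.61 and 12.35 in TRIF KO. The eosinophil-attracting chemokine Ccl24 read 8.62, 8.42 and 8.54 against 9.26, 9.22 and 9.39. MyD88 KO read 12.77, 12.86 and 12.58 for Arg1 and 8.98, 8.85 and 8.94 for Ccl24, so that both knockouts were above wild type at each time. The apolipoprotein Apoc2, the mannose receptor Mrc1, the adhesion molecule Selp and the prostacyclin synthase Ptgis were higher at 4 h by 0.78, 0.52, 0.97 and 0.95, and before LPS by 0.74, 0.49, 1.02 and 0.76. In MyD88 KO these genes differed from wild type by 0.41, 0.79, 0.96 and 0.82 at 4 h, and by 0.16, 0.68, 0.71 and 0.54 before LPS. H2-M3, a nonclassical class I molecule, was at -0.55 at 4 h and at -0.56 before LPS, and in MyD88 KO at -0.47 and -0.34.

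On the lower side 4 of the 35 genes were already at least 2-fold lower before LPS, against 0.0698% of all genes. They were Npy, Qpct, Fblim1 and Pdpn. Npy, the gene of neuropeptide Y, read 10.19, 9.77 and 9.75 in wild type and 7.43, 7.62 and 7.81 in TRIF KO. Qpct, glutaminyl cyclase, read 9.28, 9.07 and 9.11 against 7.24, 7.30 and 7.31. The differences before LPS were -2.77 for Npy and -2.04 for Qpct. MyD88 KO read 10.05, 10.17 and 10.03 for Npy and 9.26, 9.50 and 9.45 for Qpct, on the wild-type side. Fblim1, an adaptor of focal adhesions, was low in both knockouts, at 6.84 in TRIF KO and 7.77 in MyD88 KO against 8.55 in wild type at 4 h. The mucin-like protein podoplanin (Pdpn) was also low in both knockouts, at 9.69 in TRIF KO and 9.97 in MyD88 KO against 10.70 in wild type at 4 h. For these 4 genes the difference was smaller at 4 h than before LPS, so that with the unstimulated difference subtracted they stood at 0.83, 0.24, 0.45 and 0.63. Ifi202b, an interferon-inducible gene, was lower by 0.83, 0.70 and 1.20 at 0, 1 and 4 h. Its probe set is of a kind that can also read related genes, as are those of Gbp2 and Gca.

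**Figure D5:**
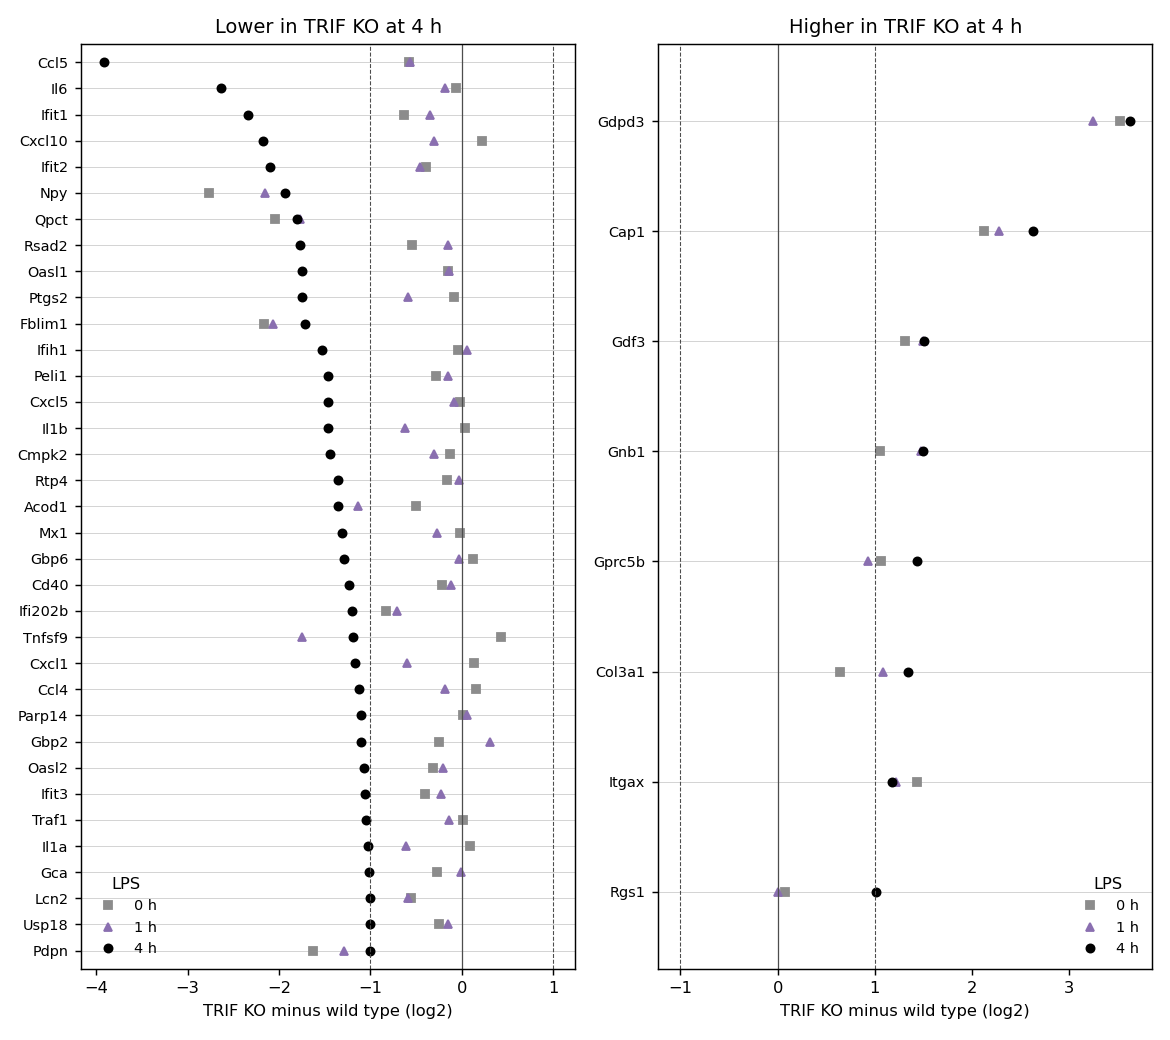
Difference between TRIF KO and wild type (log2, horizontal) at 0, 1 and 4 h of LPS for the 35 genes at least 2-fold lower (left) and the 8 at least 2-fold higher (right) at 4 h. Dashed lines mark 2-fold. Among the lower genes the grey squares of 0 h lie beyond the 2-fold line for Npy, Qpct, Fblim1 and Pdpn only, and among the higher genes for all but Col3a1 and Rgs1.

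The arrays carried the markers of macrophages. All 10 macrophage markers were analysed, with a median difference of 0.04. Csf1r read 13.41 in wild type and 13.40 in TRIF KO at 4 h, and Adgre1 12.26 and 12.30. Some fibroblast markers were higher in TRIF KO. The list's median difference from wild type at 4 h was 0.54 in TRIF KO and 0.47 in MyD88 KO, so it was not particular to TRIF KO. Of 7 analysed, Col3a1, Dcn, Sparc and Col1a2 differed by 1.34, 0.85, 0.60 and 0.54, while Col1a1, Pdgfra and Fbln1 lay between -0.04 and 0.03, and Lum was below log2 6 on every array. Col3a1 was below log2 6 on all 3 wild-type arrays, its other probe set gave 0.34, and with low values raised to log2 6 it stood at 0.44. Their summed linear level was 1540 in TRIF KO against 1070 in wild type at 4 h, and 1360 against 1030 before LPS. In RNA of mixed cells a smaller number of cells of a type and less RNA per cell cannot be told apart. B cell markers summed to 1810 in TRIF KO against 1940 at 4 h and to 1900 against 2310 before LPS. At 4 h 5 of 6 were below 0, where 53.3% of all genes were. The part of these cells in the differences above was not tested. The dendritic cell list summed to 3400 against 1870 through Itgax, and its other 4 analysed members differed by at most 0.29. The remaining 6 marker lists had medians between -0.19 and -0.0029.

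The other lists held few differences. Of 12 feedback phosphatases, SOCS genes and regulators 1 was at least 2-fold lower (Usp18) and 1 higher (Rgs1). Over all genes 0.349% and 0.0797% were. The 14 other Toll-like receptors and lectins, 20 lipid genes, 12 oxidative stress genes, 7 chemokine receptors, 18 cell cycle genes and 6 mRNA decay factors had 0 at 2-fold in either direction, with medians of -0.17, 0.04, -0.15, 0.26, 0.02 and 0.01. Ccrl2, an atypical chemokine receptor, differed by -0.81. Mcm7 and Mcm6, of the replicative helicase, differed by 0.77 and 0.56 and before LPS by 0.52 and 0.27, though another probe set of Mcm7 gave -0.23. The 12 reference transcripts had a median of 0.02. Of the 35 lower genes Il6, Cxcl5, Gbp6 and Gca reached log2 6 on the wild-type 4 h array alone, so they could be analysed only because they were high there. With values below log2 6 raised to it, Il6, Lcn2, Cxcl5, Mx1, Gca and Gbp6 stood at -0.95, -0.77, -0.47, -0.33, -0.048 and -0.034, short of 2-fold. The other probe sets of 9 lower genes (10 probe sets) all differed in the same direction, 6 of them by 2-fold or more. Of 5 other probe sets of 4 higher genes, 4 differed in the same direction and 1 by 2-fold or more.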

How the data were processed

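Biotin-labelled RNA was measured on Affymetrix arrays with 22690 probe sets. The authors deposited 1 log2 expression value for each probe set and array. Per the submitters' processing notes they used RMA, which corrects background, normalizes quantiles and summarises probes. Its version was not given in the sources used here, nor whether the 9 arrays went through it as 1 set. Array medians lay between 7.01 and 7.07, and the values were used as deposited. The number of arrays limits the precision.

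Genes were named from the platform's annotation, with symbols updated by gene identifier through RefSeq (GRCm38.p6, 20364 of 20393 probe sets with 1 symbol). Each gene was read from the probe set that had the highest mean level. Differences and counts were computed in Python 3.11.15 with pandas 2.3.3, and the counting was tested on simulated data. There were 34 gene lists, 10 of them cell type markers. The genes and lists were chosen with earlier results of these data known. Named were the 25 lowest and 12 highest differences, up to 6 members of each list with a difference of at least 0.5, the targeted genes and a few fixed pathway genes. Parp14, Ifit3, Gca, Pdpn, Slfn1, Rab27a, Rab4a and the list members with smaller differences were named after their values were seen. Alternatives changed the filter, the floor, the scaling, the probe set and the threshold, or subtracted an earlier difference. No array was left out, since each group has 1.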

Additional observations from a re-analysis of the deposited data

Results flagged for a closer look

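In 5 of the named genes the 4 h array stood above the unstimulated array in one genotype and below it in the other, each by at least 0.15 (log2), and these opposite directions were not tested. Usp18 differed by 0.50 in wild type and by -0.26 in TRIF KO. Npy differed by -0.45 in wild type and 0.39 in TRIF KO, Col3a1 by -0.31 and 0.39, Gnb1 by -0.27 and 0.17, and Ifi202b by 0.22 and -0.15. Another 1433 probe sets name no single gene and reached log2 6. Of these, 5 were at least 2-fold lower in TRIF KO than wild type at 4 h and 1 was higher. Among all named genes at 4 h, 0.349% were lower and 0.0797% higher. Before LPS, 1 of the 1433 was lower and 0 were higher.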

How the results depend on the processing

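The 35 lower and 8 higher genes had no replicate check, so no array could be left out. No paired analysis was possible because each group has 1 array and the labels number no replicates. Without a filter the 35 lower genes were called again by construction, and no other gene joined them. There were 29 with a maximum of at least log2 7, 29 with low values raised to log2 6, 31 after centring on all genes, 37 after centring on the reference transcripts, 31 after repeated quantile normalization, 33 with the median of the probe sets and 37 with the probe set of the largest spread. Subtracting the unstimulated difference left 27, of which 23 were among the 35, and subtracting the difference at 1 h left 22, of which 18 were. The higher genes numbered 14 with the probe set of the largest spread, and 2 after either subtraction, of which 0 and 1 were among the 8. At 1.5-fold there were 91 lower and 56 higher genes, and at 4-fold 5 and 2. The count of 14 lower genes with a response in MyD88 KO was between 11 and 15 under the settings that keep the 2-fold limit, and was not computed at 1.5-fold or 4-fold.

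Some list medians moved by more than 0.16, the spread over genes of the unstimulated difference. With low values raised to log2 6, the antiviral effectors stood at -0.38 and the GTPases at -0.41. The interferon-inducible chemokines stood at -0.30 without a filter, -2.17 with a maximum of at least log2 7 and -1.03 after subtracting the difference at 1 h. After subtracting the unstimulated difference the antiviral effectors stood at -0.40 and the NF-kB genes at -0.52. The interferon genes stood at -0.15 after subtracting the difference at 1 h. The chemokine receptors reversed to -0.019 without a filter, -0.045 after subtracting the unstimulated difference and -0.042 after subtracting the 1 h difference, and stood at 0.070 with the probe set of the largest spread. The feedback genes reversed to 0.070 after subtracting the 1 h difference, and the B cell markers to 0.28 and 0.16 after the unstimulated and the 1 h subtraction. The fibroblast markers stood at 0.29 without a filter, 0.33 with the median of the probe sets, and 0.074 and 0.19 after the same subtractions. The unstimulated subtraction moved the T and NK cell markers to 0.042 and the mesothelial markers to -0.20, and raising low values moved the eosinophil markers to 0.

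Genes reversed only under a subtraction, which by construction removes differences present earlier. Under that of the unstimulated difference Npy stood at 0.83, Qpct at 0.24, Fblim1 at 0.45, Pdpn at 0.63, Itgax at -0.25, Selp at -0.052, Egr1 at -0.15 and H2-M3 at 0.013. Under that of the 1 h difference Npy stood at 0.23, Fblim1 at 0.36, Pdpn at 0.28, Itgax at -0.040, Selp at -0.13, Apoc2 at -0.16, Tnfsf9 at 0.56 and Tnf at 0.036.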
